A study of Beta vulgaris with 12 samples.

Results

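The genes described here are the histones, the cyclins and cyclin-dependent kinases (CDKs), and the DNA replication genes of sugar beet, measured by RNA-seq in the roots of seedlings. They were taken by a rule on their annotation, and the set was chosen with earlier results of these data known. A gene was a member if its description named a histone (H1 to H4), a cyclin, a CDK, proliferating cell nuclear antigen (PCNA) or a replication licensing factor, or if its KEGG entry listed the DNA replication pathway. This gave 155 members among the 28320 genes of the table, of which 40 were found by the histone words, 62 by the cyclin, CDK, PCNA and licensing words, and 61 by KEGG. Expression was given as FPKM, the number of fragments per kilobase of a transcript, scaled to the size of the library. A mean FPKM of at least 1 over the 12 libraries was reached by 119 members, and 36 lay below it. Those 36 were mainly RPA1-like genes (13), CDKs (7) and histones of the H3.3, H2B, H3 and H4 classes.

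Cells copy their DNA once per division cycle. The minichromosome maintenance proteins MCM2 to MCM7 form the ring-shaped helicase that is loaded at replication origins before S phase, PCNA is the clamp that holds the polymerases on the template, and replication factor C (RFC) loads the clamp. Polymerase alpha with its primase starts each strand, polymerases delta and epsilon extend it, replication protein A (RPA) covers single-stranded DNA, and flap endonuclease, ribonuclease H2 and DNA ligase finish the Okazaki fragments. The new DNA is packed by histones H2A, H2B, H3 and H4, whose canonical forms are made mainly in S phase, whereas variants such as H3.3 are made throughout the cycle. D-type cyclins act at the entry into the cycle, and A-type and B-type cyclins act with CDKs in S phase, G2 and mitosis. In roots these genes are known as markers of the dividing cells of the meristem and of lateral root primordia. Other CDKs and cyclins (types C, H, L and T) act in transcription and RNA processing.

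RNA was taken from roots of 4-week-old seedlings of 4 groups with 3 libraries each, namely the control in Hoagland nutrient solution (CK) and the salt treatment on day 1 (CK_1 and S_1) and on day 7 (CK_7 and S_7). The salt was a mixture of NaCl and Na2SO4 with 300 mM Na+, and all groups were of the cultivar KWS0143. According to the methods that concentration was reached in steps, so the Na+ level of S_1 is uncertain. The tissue was whole root, and in such bulk samples fewer cells of a type and less RNA per cell cannot be told apart. The 12 libraries had FPKM sums of 382847 to 423530, and the median gene lay between 1.39 and 1.98 FPKM. The table holds no read counts, so the number of reads behind a value is unknown. CK_1 replicate 2 stood apart from the other CK_1 libraries. It held the highest CK_1 value in 92 of the 119 members of at least 1 FPKM (77.3%), against 58.7% of all such genes. After scaling by median ratios the shares were 60.5% and 39.8%. Counts of upregulated or downregulated members and replication fork genes that rest on CK_1 are therefore also given without that library. So are the genes described here that gain or lose a call without it. For pairs of groups, counts by p alone, by libraries that do not overlap and in related genes are given with all 3 CK_1 libraries only. For counts with a library left out, no share of all genes is given, so they cannot be read as particular to the members. Genes of leaves were detected in these roots, with 16 of 18 chlorophyll a-b binding and Rubisco small subunit genes at a mean FPKM of at least 1. All 3 Casparian strip genes of the root endodermis were expressed, as were 3 of 5 root meristem regulators (PLT2, SCARECROW and 1 SHORT-ROOT gene).

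A gene is called upregulated or downregulated where the unadjusted P was under 0.05 and the log2 fold change of FPKM + 1 was above 1 or below -1, with the Benjamini-Hochberg adjusted p over all genes beside it. Both come from limma's moderated test on 6 libraries. The fold change is on the scale of log2(FPKM + 1), which understates the change of genes of low FPKM, so the ratio of the group means in FPKM is given beside it where no library was listed at 0.

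More members were higher on day 7 than lower. In the controls, 26 of the 149 members tested were upregulated on day 7 relative to day 1 (CK_7 against CK_1) and 1 was downregulated. Among all genes the shares upregulated and downregulated were 6.85% and 3.4%. With an adjusted p under 0.05 as the only criterion, 17 members were higher and 1 lower (5.54% and 2.59% of all genes). The 3 CK_7 libraries all lay above the 3 CK_1 libraries in 48 members and all below in 10, against 21.1% and 11.5% of all genes. Without CK_1 replicate 2, 34 members were upregulated. The 1 downregulated member became 3 without CK_1 replicate 1, and 2 without CK_1 replicate 2 or CK_7 replicate 1. Of the 26 upregulated members, 17 belonged to the machinery of the replication fork.

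In the salt-treated roots the same comparison (S_7 against S_1) gave 11 upregulated and 2 downregulated members of 152, against 4.11% and 2.66% of all genes. By adjusted p alone, 7 were higher and 3 lower (1.67% and 0.985% of all genes). The S_7 libraries all lay above the S_1 libraries in 58 members and below in 7 (22.6% and 8.01% of all genes). Upregulation in both comparisons was found for 8 members. The 11 became 6 without S_1 replicate 1, 17 without S_7 replicate 2, and 3 after scaling the libraries by median ratios. That scaling lowered the median log2 fold change of all genes by 0.22 in S_7 against S_1 and by 0.16 in CK_7 against CK_1, so differences between the days are read against these shifts.

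The replication fork genes (MCM, PCNA, polymerases alpha, delta and epsilon with primase, RFC, the RPA 32 and 14 kDa subunits, and Okazaki fragment processing) number 36, and 35 of them had a mean FPKM of at least 1. Of the 36, 17 were upregulated in CK_7 and none was downregulated, and in 30 of them the CK_7 libraries all lay above CK_1. In S_7 against S_1, 7 were upregulated, none was downregulated, and 32 did not overlap, all of them with S_7 higher. Their median log2 fold change was 0.98 in the controls and 0.76 in the salt-treated roots, against 0.16 and 0.21 for all genes of that level. The ratio of mean FPKM was above 1 in 34 of 35 genes in the controls and in 33 of 35 under salt, with medians of 2.27 and 1.98. After scaling by median ratios, the counts upregulated were 11 and 1, and the medians were 0.81 and 0.57, both above the near 0 medians of all genes. Without CK_1 replicate 2 the first count was 21, and without S_1 replicate 1 the second was 3.

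All 6 MCM genes were upregulated in CK_7 against CK_1, with log2 fold changes of 1.16 to 1.71 and ratios of mean FPKM of 2.86 to 4.78, and 3 of them (MCM2, MCM6 and MCM7) had an adjusted p under 0.05. In S_7 against S_1, 5 of 6 were upregulated, at 1.02 to 1.32, and MCM5 missed the fold criterion at 0.98. MCM2 and MCM6 alone kept the call in CK_7 with Ballgown's linear model, in which the other 4 lay between 0.63 and 0.88, and MCM3 alone kept it in S_7 after scaling by median ratios. In S_7, Ballgown's model lost the calls of MCM2, MCM6 and MCM7 (1.28, 1.10 and 1.39). The call of MCM5 in CK_7 was lost without CK_1 replicate 1 (0.92), and in S_7 those of MCM4 and MCM7 were lost without S_1 replicate 1 (0.85 and 0.99), MCM4 also without S_7 replicate 1 or 3, and MCM6 without S_1 replicate 3 or S_7 replicate 1 (0.94 and 0.98). MCM2 (LOC104901364) had FPKM of 3.01, 4.64 and 1.83 in CK_1, 4.62, 6.15 and 5.57 in S_1, 10.3, 13.6 and 12.6 in CK_7 and 13.7, 10.5 and 15.4 in S_7. Every day 7 library thus lay above every day 1 library, and CK_7 and S_7 overlapped. MCM6 (LOC104898787), the member of the ring with the largest ratio in CK_7 against CK_1, had 0.95, 1.76 and 0.605 FPKM in CK_1, 2.3, 3.22 and 1.93 in S_1, 4.41, 5.78 and 5.66 in CK_7 and 6.97, 5.84 and 5.76 in S_7. Its CK_7 mean of 5.29 ± 0.759 (SD, n = 3) was 4.78 times the CK_1 mean of 1.11 ± 0.593 (SD, n = 3; log2 fold change 1.61 ± 0.28 (SE), limma adjusted p = 0.0313).

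MCM3 (LOC104883739) separated the salt groups on day 7. Its FPKM was 1.46, 3.2 and 0.688 in CK_1, 3.16, 4.65 and 4.22 in S_1, 6.37, 7.22 and 7.28 in CK_7 and 11.9, 9.93 and 12.5 in S_7. On day 7 all salt libraries lay above all controls, on day 1 CK_1 replicate 2 was the only control to reach into the salt range, and neither difference reached the fold criterion (log2 fold change 0.94 ± 0.39 (SE) on day 1 and 0.64 ± 0.13 (SE) on day 7, limma adjusted p = 0.334 and 0.0812). MCM4 (LOC104904296) lay at 1.86 to 5.58 FPKM in CK_1 and 10.4 to 10.9 in CK_7, and at 4.59 to 7.02 FPKM in S_1 and 11.9 to 14.1 in S_7. MCM7 (LOC104894762) lay at 2.76 to 4.53 FPKM in CK_1 and 9.06 to 11.6 in CK_7, and at 3.78 to 5.62 FPKM in S_1 and 9.08 to 13.3 in S_7. MCM5 (LOC104901820), an entry that joins 2 loci, lay at 0.818 to 2.56 FPKM in CK_1 and 4.18 to 5.19 in CK_7, and at 1.99 to 2.98 FPKM in S_1 and 5.06 to 6.99 in S_7. In all 3 genes the day 1 and day 7 libraries of a treatment did not overlap.

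Both PCNA genes were upregulated in the controls between the days. The higher of them (LOC104900019) had 8.55, 12 and 7.93 FPKM in CK_1, 14.7, 19.4 and 8.72 in S_1, 20.9, 25.5 and 18.1 in CK_7 and 20.9, 29.4 and 34.5 in S_7. The lower (LOC104903846) had 0.767, 1.52 and 0.481 FPKM in CK_1, 1.09, 1.92 and 1.92 in S_1, 3.88, 4.78 and 5.0 in CK_7 and 3.01, 2.59 and 8.27 in S_7. CK_7 lay above CK_1 without overlap in both (log2 fold change 1.11 ± 0.21 (SE) and 1.56 ± 0.28 (SE), limma adjusted p = 0.0365 and 0.0321). Under salt the groups of the 2 days did not overlap either, but the log2 fold changes of 0.98 and 0.97 missed the criterion. The call of LOC104900019 in CK_7 was lost after scaling (0.93), with Ballgown's linear model (0.67) and without CK_7 replicate 2 (0.98).

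**Figure D1:**
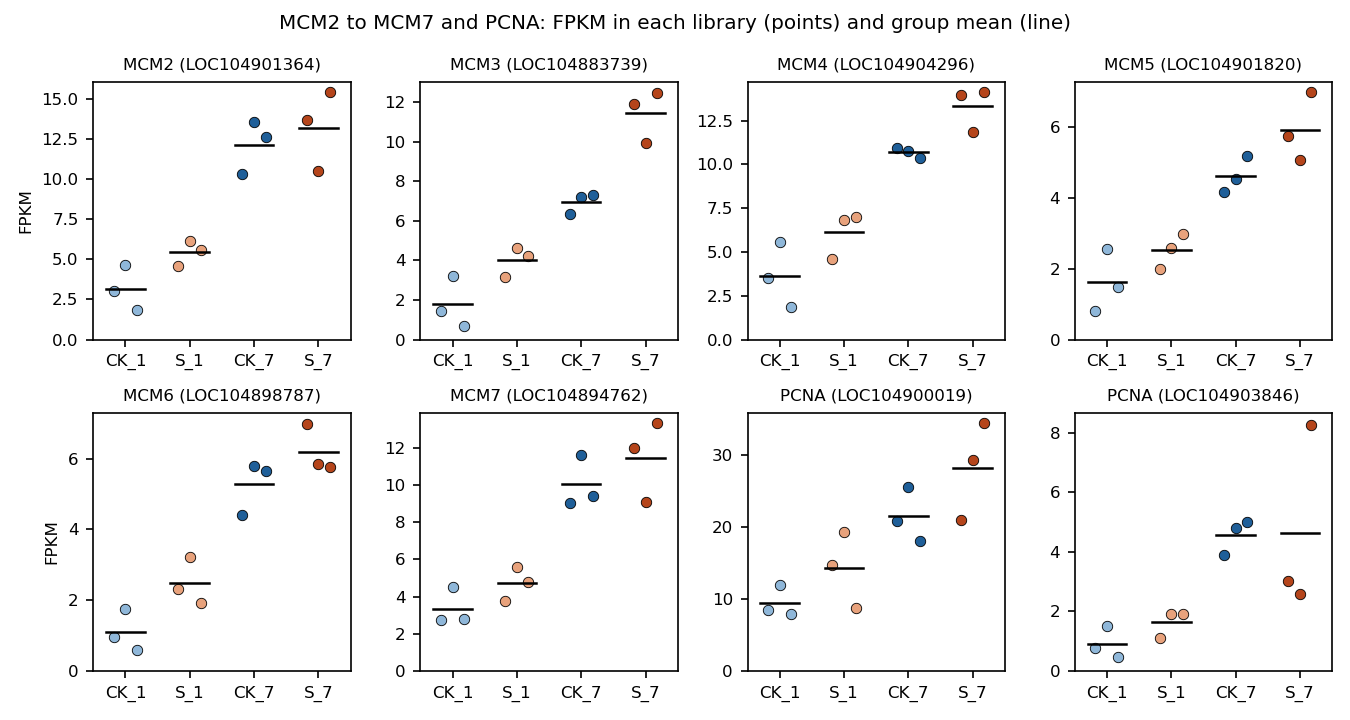
FPKM (vertical axis, linear, from 0) of MCM2 to MCM7 and of both PCNA genes in the 4 groups; each point is 1 library and the line is the mean of the 3 libraries. In the 6 MCM genes every S_7 point lies above every S_1 point and every CK_7 point above every CK_1 point, and CK_1 replicate 2 is the highest CK_1 point in all 8 genes.

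Polymerase genes were higher on day 7 too. Of the 4 genes of polymerase alpha and primase, 3 were upregulated in CK_7, and the alpha catalytic subunit (LOC104884463), at 0.98, missed the criterion and met it without CK_1 replicate 2 (1.18). It had 2.61, 3.27 and 1.23 FPKM in CK_1, 2.43, 3.28 and 3.02 in S_1, 4.89, 6.08 and 5.38 in CK_7 and 5.19, 5.61 and 6.09 in S_7. The libraries of the 2 days did not overlap in either treatment, in this gene or in the other 3. None of the 4 was called in S_7 against S_1. Of the 7 genes of polymerases delta and epsilon, 3 were upregulated in CK_7 and 0 in S_7 against S_1. The one of highest mean, LOC104891331, which the table calls a hypothetical protein and whose KEGG entry is a delta subunit, had 3.64, 3.59 and 3.02 FPKM in CK_1, 3.78, 3.25 and 5.16 in S_1, 7.99, 8.74 and 8.35 in CK_7 and 7.68, 7.37 and 5.57 in S_7 (CK_7 against CK_1, log2 fold change 1.09 ± 0.16 (SE), limma adjusted p = 0.0212). Epsilon subunit 3 (LOC104900308) and delta subunit 4 (LOC104890137) were the exceptions of the class, with overlapping groups in both day comparisons and log2 fold changes of -0.27 and 0.30 in the controls. These 2 were singled out after their values were seen.

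In all 5 RFC genes the day 7 libraries lay above the day 1 libraries in both treatments, but 1 was upregulated, RFC subunit 3 (LOC104908347) in S_7 against S_1. RFC subunit 1 (LOC104896137), the large subunit, had 12.7, 13.9 and 11.5 FPKM in CK_1, 7.98, 7.77 and 8.86 in S_1, 19.4, 18.8 and 16.5 in CK_7 and 13.4, 11.4 and 13.4 in S_7. It was higher on day 7 and lower under salt on both days, without overlap, with log2 fold changes for salt of -0.57 ± 0.15 (SE) and -0.48 ± 0.11 (SE) that did not reach the fold criterion (limma adjusted p = 0.154 and 0.108). RPA 32 kDa subunit A (LOC104886674) had 1.74, 2.32 and 1.07 FPKM in CK_1, 3.18, 5.21 and 4.6 in S_1, 6.9, 7.33 and 7.92 in CK_7 and 11.5, 8.54 and 12.7 in S_7. Its 4 groups stood in the order CK_1, S_1, CK_7, S_7 with no overlap between neighbours, and it was upregulated between the days in both treatments (1.65 and 1.16, the latter lost after scaling, at 0.92, with Ballgown's linear model, at 1.61, and without S_1 replicate 1). The RPA 14 kDa gene (LOC104887682) had 11.6, 12 and 9.99 FPKM in CK_1, 5.44, 6.01 and 4.82 in S_1, 11, 10.3 and 14.4 in CK_7 and 10.9, 10.2 and 11.3 in S_7. S_1 alone was low, and the difference from CK_1 of -0.93 ± 0.16 (SE) missed the fold criterion (limma adjusted p = 0.0797).

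RPA 70 kDa is a large family in the table, with 22 genes that share 1 KEGG entry, of which 9 had a mean FPKM of at least 1. RPA 70 kDa subunit B (LOC104907896) had 0.635, 2.31 and 0.182 FPKM in CK_1, 1.96, 2.34 and 2.16 in S_1, 5.08, 4.4 and 6.32 in CK_7 and 8.79, 7.57 and 9.24 in S_7. Day 7 lay above day 1 without overlap in both treatments (log2 fold change 1.74 ± 0.43 (SE) in the controls and 1.59 ± 0.16 (SE) under salt, limma adjusted p = 0.0664 and 0.0217). With Ballgown's linear model the control difference was 0.82 and not called. No other of the 22 genes was called in any of the 4 comparisons. The gene of highest mean in the family, LOC104897389 (a hypothetical protein), ran the other way at a small size, at 65.4 to 72.2 FPKM in CK_1 and 52.4 to 60.2 in CK_7 (log2 fold change -0.28 ± 0.12 (SE), not called).

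Flap endonuclease 1 (LOC104895393), which trims the primer end of Okazaki fragments, had 3.18, 4.46 and 2.98 FPKM in CK_1, 5.4, 5.6 and 5.11 in S_1, 10.8, 9.88 and 10.6 in CK_7 and 9.43, 7.31 and 9.11 in S_7. It was upregulated in CK_7 (1.34 ± 0.18 (SE), limma adjusted p = 0.0191), and its salt groups lay above CK on day 1 and below CK on day 7, in both cases without overlap and without a call. A direct test of that difference between the days gave -0.75 ± 0.21 (SE) and an adjusted p of 0.122. The gene described as DNA ligase 1-like (LOC104902910) was the other upregulated gene of the 9 in this class, and in 7 of the 9 the S_7 libraries lay above S_1.

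The levels of marker genes moved with the day as well. The summed FPKM of the 18 leaf genes was 54.6 to 145 in CK_1, 37.2 to 264 in S_1, 10.1 to 22.7 in CK_7 and 8.91 to 16.7 in S_7, so that both day 7 groups lay below both day 1 groups. The 5 meristem regulators summed to 11.4 to 16.2 FPKM in CK_1, 6.2 to 10.1 in S_1, 7.55 to 25.7 in CK_7 and 19.7 to 27.8 in S_7. By that sum S_1 lay below CK_1, the days overlapped in the controls, and S_7 lay above S_1. One SHORT-ROOT gene (LOC104894957) was listed at 0 in 5 of 12 libraries and at 11.3 to 15.2 in S_7, and without it the sums were 8.31 to 16.2 in CK_1, 4.97 to 8.81 in S_1, 7.55 to 10.8 in CK_7 and 6.13 to 12.5 in S_7, which overlapped between the days in both treatments. The other SHORT-ROOT gene was at or near 0 in every library. PLT2 lay between 3.97 and 8.08 FPKM in CK_1, 0.997 and 2.93 in S_1, 1.33 and 2.21 in CK_7 and 1.07 and 2.35 in S_7, and SCARECROW between 4.02 and 7.81, 2.99 and 5.87, 6.11 and 8.83, and 3.67 and 10.1 in these groups. The part of these cell types in the differences between the days was not tested. The plants were also 6 days older on day 7, and age and time in the solution cannot be told apart.

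Genes around the core, from lists assembled by description, were compared in the same way. Of 45 mitosis genes (kinesins, spindle checkpoint, condensin, Aurora kinases and others), 14 were upregulated in CK_7 and 4 in S_7 (6.85% and 4.11% of all genes), and none was downregulated. The day 7 libraries all lay above day 1 in 27 and 33 of them (21.1% and 22.6% of all genes). They all lay below in 3 and 0 (11.5% and 8.01% of all genes). The median log2 fold changes of the mitosis genes were 0.52 and 0.67, against 0.16 and 0.21 for all genes. Of 8 genes of nucleotide supply, 4 and 2 were upregulated, and of 9 genes of origin licensing and firing 1 and 1. Of 5 E2F and retinoblastoma genes, which control the entry into S phase, none was called in any comparison. In S_7 against S_1, 3 of the 5 lay higher without overlap and 0 lower, with a median log2 fold change of 0.59. In CK_7 against CK_1, 2 lay higher without overlap and 1 lower, with a median of 0.42. The list of 4 histone chaperones held 1 upregulated gene in each day comparison, the large subunit of chromatin assembly factor 1.

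**Figure D2:**
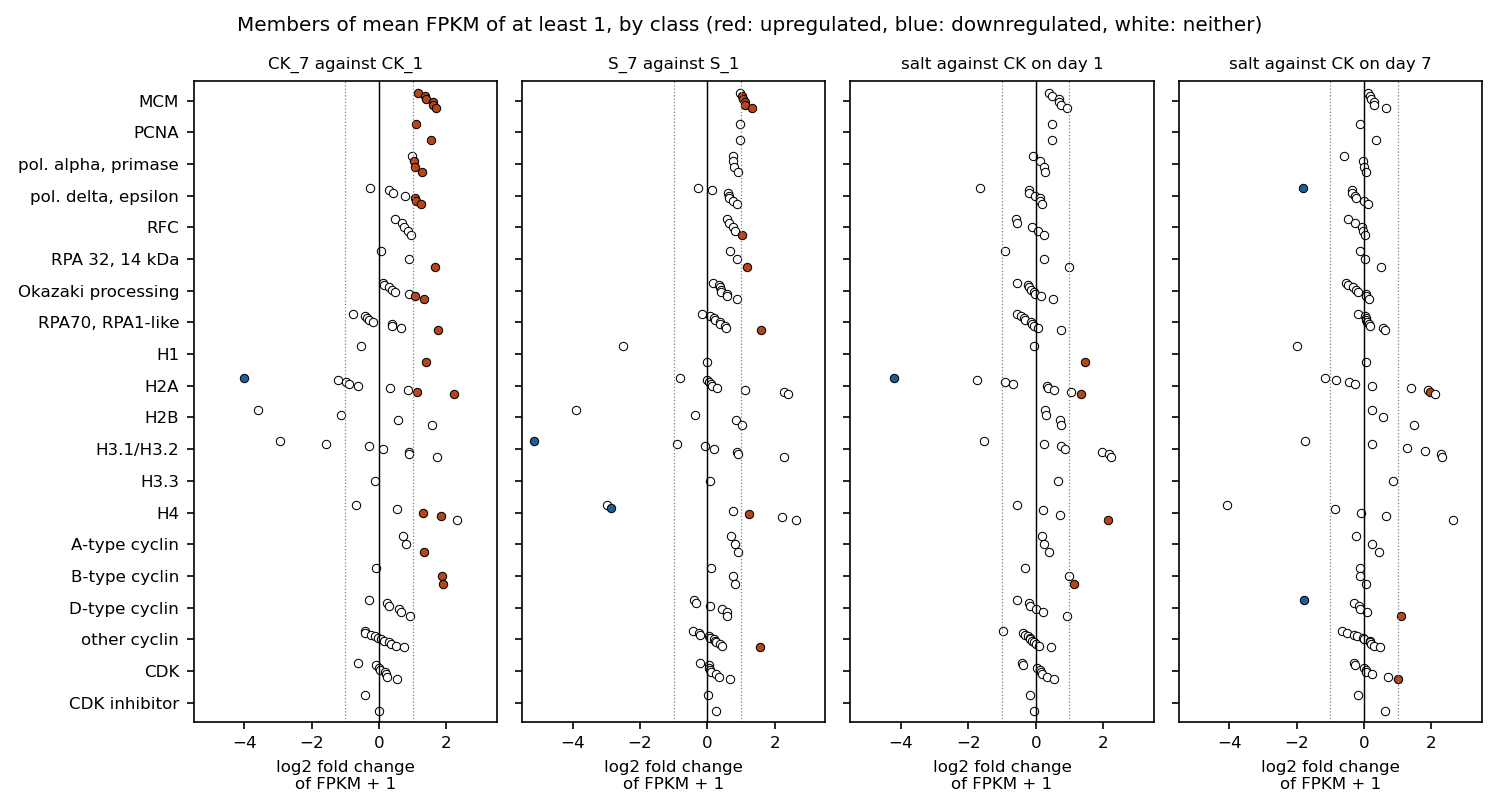
Log2 fold change of FPKM + 1 (horizontal axis) of the members with a mean FPKM of at least 1, by class (vertical axis), in the 4 comparisons; each point is 1 gene, red is upregulated, blue downregulated and white neither, and dotted lines mark -1 and 1. The MCM, PCNA, polymerase, RFC and RPA 32 and 14 kDa genes lie mostly to the right of 0 in both day comparisons. For salt on day 1 all MCM and PCNA points lie to the right of 0 but none is called, and in the 2 salt comparisons 4 and 3 members were upregulated and 3 and 2 downregulated (2 of those downregulated on day 1 belong to joined loci, which are not drawn).

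Among the mitotic and S-phase cyclins, 3 of 6 A-type and B-type genes were upregulated in CK_7, and none in S_7 against S_1. G2/mitotic-specific cyclin-2, a B-type cyclin, was listed under 2 genes. The first (LOC104895206) had 0.602, 1.81 and 0.203 FPKM in CK_1, 2.3, 2.89 and 3.52 in S_1, 5.11, 6.13 and 5.41 in CK_7 and 5.75, 4.15 and 8.25 in S_7. Its CK_7 mean was 6.36 times the CK_1 mean (log2 fold change 1.90 ± 0.36 (SE), limma adjusted p = 0.0367), and S_1 lay above CK_1 without overlap (1.14 ± 0.37 (SE), limma adjusted p = 0.233), a call that was lost without CK_1 replicate 1 or 3 or S_1 replicate 2 or 3. The second (LOC104895207) had 0.463, 2.27 and 0.563 FPKM in CK_1, 1.94, 2.67 and 4.58 in S_1, 5.53, 6.02 and 7.21 in CK_7 and 5.01, 4.39 and 8.22 in S_7 (CK_7 against CK_1, 1.88 ± 0.37 (SE), limma adjusted p = 0.040). In both genes CK_7 lay above CK_1 without overlap. In the second, CK_1 and S_1 overlapped, as did S_1 and S_7, which did not in the first. Without CK_1 replicate 2 the second was also upregulated for salt on day 1 (1.37).

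Putative cyclin-B3-1 (LOC104906254) did not share this pattern. It had 17.5, 17.7 and 14.6 FPKM in CK_1, 13, 12.6 and 13.5 in S_1, 17.1, 15 and 14.3 in CK_7 and 15.2, 14.1 and 13.2 in S_7, the highest mean of its class, and log2 fold changes between -0.32 and 0.11 over the 4 comparisons. Cyclin-A2-2 (LOC104887733) had 3.28, 6.57 and 1.94 FPKM in CK_1, 3.6, 3.37 and 6.2 in S_1, 6.84, 7.29 and 6.71 in CK_7 and 8.65, 6.58 and 9.97 in S_7. Its days did not overlap in either treatment, and its log2 fold changes of 0.80 and 0.82 missed the criterion. It was upregulated in CK_7 without CK_1 replicate 2 (1.16, limma adjusted p = 0.0395). Cyclin-A1-4 (LOC104899245), named after its values were seen, was the A-type gene called, at 1.24 to 2.44 FPKM in CK_1 and 5.82 to 7.19 in CK_7.

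No member was annotated as a B-type CDK. The table lists the CDK partners of the mitotic cyclins under an older name, cell division control protein 2 homolog, and 1 of the 4 genes of that name (homolog D, LOC104899317) was called in 3 comparisons. Its FPKM was 1.58, 4.85 and 0.961 in CK_1, 7.02, 5.71 and 12.4 in S_1, 16.7, 12.3 and 23.6 in CK_7 and 15.7, 20.6 and 18.2 in S_7. The log2 fold change was 2.54 ± 0.47 (SE) between the days in the controls and 1.54 ± 0.50 (SE) for salt on day 1 (limma adjusted p = 0.035 and 0.226). In S_7 against S_1, 2 of the 4 genes were upregulated, homolog D and 1 other (4.11% of all genes). Aurora-2 (LOC104885944), a kinase of the mitotic spindle, had 1.21, 3.9 and 0.726 FPKM in CK_1 and 4.02, 6.84 and 5.46 in S_1, and was the only one of the 45 mitosis genes called for salt (1.25 ± 0.45 (SE), limma adjusted p = 0.269).

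Few members differed with salt by these criteria. The comparison of day 1 shares the CK_1 libraries with that of CK_7 against CK_1, and the comparison of day 7 shares CK_7 with it. On day 1, 4 of 147 members were upregulated and 3 downregulated in S_1 against CK_1, and the shares among all genes were 3.44% and 2.55%. With an adjusted p under 0.05, limma called 0 members higher and 1 lower (0.44% and 0.332% of all genes). At an unadjusted p under 0.05 alone, 6 were higher and 7 lower, and Ballgown's linear model called 3 and 2 by the 2 criteria. The salt libraries lay above all controls in 6 members and below in 12, against 11.2% and 10.6% of all genes. The 4 upregulated members became 14 without CK_1 replicate 2, 2 without CK_1 replicate 1 or S_1 replicate 2, and 1 without CK_1 replicate 3 or S_1 replicate 3, while the 3 downregulated became 1 without CK_1 replicate 2 or S_1 replicate 3. The 14 included MCM3, RPA 32 kDa subunit A, RPA 70 kDa subunit B, both genes of G2/mitotic-specific cyclin-2, cyclin-D1-1 and 8 histone genes, among them H1, H2A, H2A-beta, the H3.2 gene LOC104891457 and the H4 genes LOC104908202 and LOC104906716. The share of all genes called without CK_1 replicate 2 is not given, so the 14 cannot be set against all genes.

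On day 7, 3 of 149 members were upregulated and 2 downregulated in S_7 against CK_7 (2.7% and 2.38% of all genes). By adjusted p alone, 1 was higher, histone H2B.9, and 0 were lower (0.952% and 0.733%). At an unadjusted p under 0.05 alone, limma gave 16 higher and 11 lower, and Ballgown's linear model called 0 and 1 by the 2 criteria. The salt libraries lay above all controls in 19 members and below in 18, against 15.5% and 10.9% of all genes. The 3 upregulated members became 1 when any CK_7 library was left out and 0 without S_7 replicate 1. The 2 downregulated became 1 without CK_7 replicate 2 or 3 or S_7 replicate 1 or 3, and 4 without S_7 replicate 2. Between the days, the salt effect was more positive on day 7 in 1 member with an adjusted p under 0.05, again H2B.9, and more negative in 0 by limma (0.826% and 0.936% of all genes). At an unadjusted p under 0.05, 6 were more positive and 6 more negative. The 1 became 2 without CK_1 replicate 1 or 2, CK_7 replicate 2 or S_7 replicate 2.

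The replication fork genes had median log2 fold changes for salt of 0.13 on day 1 and -0.02 on day 7, against -0.0009 and 0.05 for all genes of that level. The median of day 1 was 0.35 without CK_1 replicate 2, 0.0011 without CK_1 replicate 3, 0.07 without CK_1 replicate 1 and 0.03 without S_1 replicate 3, and that of day 7 lay between -0.07 and 0.04 when single libraries were left out. None of the 35 tested was called on day 1 by limma, where 1 was higher and 3 were lower at an unadjusted p under 0.05. On day 7, 1 was called, the small delta subunit 4 (LOC104890137), at 10.3, 6.51 and 9.38 FPKM in CK_7 and 0.798, 6.89 and 0.402 in S_7, with groups that overlapped and a call that was lost when any one of 5 of the 6 libraries was left out. The S_7 libraries lay below CK_7 in 11 of the 36 genes and above in 3, against 10.9% and 15.5% of all genes, and at an unadjusted p under 0.05 limma gave 7 lower and 3 higher. All 6 MCM genes had a positive log2 fold change for salt on both days, with medians of 0.68 and 0.24, but none was called. MCM6 was the only one in which S_1 and CK_1 did not overlap. Without CK_1 replicate 2, MCM3 and RPA 32 kDa subunit A were upregulated on day 1, and without CK_1 replicate 1 or 3 or S_1 replicate 1 at most 1 replication fork gene was called in each direction.

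The D-type cyclins held 1 upregulated and 1 downregulated gene for salt on day 7, neither with overlap. Cyclin-D3-1 was present as 2 genes. The one of higher FPKM (LOC104904975) had 8.84, 13.2 and 4.41 FPKM in CK_1, 5.88, 4.3 and 5.59 in S_1, 9.38, 19.2 and 22.8 in CK_7 and 4.5, 3.59 and 3.73 in S_7. All S_7 libraries lay below all CK_7 libraries, and the S_7 mean of 3.94 ± 0.49 was 0.23 of the CK_7 mean of 17.1 ± 6.95 (SD, n = 3 each; log2 fold change -1.79 ± 0.33 (SE), limma adjusted p = 0.0716). The call held when each library was left out. On day 1 the groups overlapped (-0.55 ± 0.38 (SE)), and the difference between the days was -1.25 ± 0.53 (SE) with an adjusted p of 0.313. The other cyclin-D3-1 gene (LOC104894883), named after its values were seen, had 0.778, 0.904 and 0.52 FPKM in CK_7 and 1.81, 1.12 and 2.04 in S_7, so that there the salt libraries all lay above the controls, at a log2 fold change of 0.61 ± 0.20 (SE) that missed the criterion (limma adjusted p = 0.205). Cyclin-D4-1 was present as 2 genes. LOC104896059 had 6.64, 9.25 and 3.63 FPKM in CK_1, 9.36, 6.83 and 5.89 in S_1, 5.53, 3.89 and 5.31 in CK_7 and 15.7, 12.9 and 7.35 in S_7, and was upregulated on day 7 (1.09 ± 0.29 (SE), limma adjusted p = 0.141). This call was lost without CK_7 replicate 2 (0.96) or S_7 replicate 1 (0.88), and with Ballgown's linear model (1.24, adjusted p = 0.44). The other, LOC104891536, was the D-type gene of highest mean, at 27 to 30.8 FPKM in CK_7 and 27.7 to 34.8 in S_7, with overlapping groups. Cyclin-D1-1 (LOC104908471), named after its values were seen, lay higher in S_1 (4.74, 7.77 and 5.88) than in CK_1 (2.35, 3.76 and 2.14) without overlap, at a log2 fold change of 0.93 ± 0.28 (SE) that missed the criterion (limma adjusted p = 0.20).

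Of the 15 CDK genes outside the joined loci, 1 was called for salt. CDK F-1 (LOC104902244), a member of the class that activates other CDKs in Arabidopsis, had 1.87, 4.87 and 1.64 FPKM in CK_1, 4.06, 3.7 and 4.86 in S_1, 2.96, 3.39 and 3.11 in CK_7 and 9.88, 6.97 and 5.6 in S_7. S_7 lay above CK_7 without overlap, at a log2 fold change of 1.00 ± 0.22 (SE) on the edge of the criterion (limma adjusted p = 0.0959), and the call was lost without S_7 replicate 1 (0.81) or CK_7 replicate 1 or 3, after scaling (0.94) and with Ballgown's linear model (0.90). CDK D-1 (LOC104893694), the CDK of highest mean, lay between 10.7 and 22.9 FPKM in all libraries, and its 4 log2 fold changes were at most 0.18. The CDK inhibitors, which hold back the cycle, were not called in any comparison. Inhibitor 7 (LOC104883773) had 3.98, 7.52 and 5.55 FPKM in CK_1, 5.88, 2.74 and 6.38 in S_1, 6.19, 3.78 and 7.38 in CK_7 and 5.77, 4.06 and 4.86 in S_7, and the 4 groups overlapped. The regulatory subunit that docks on CDKs (LOC104903574) lay between 20.7 and 51.4 FPKM and was not called either.

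Among the other cyclins, cyclin-U2-1 (LOC104905341; U-type or P-type cyclins bind CDKs, and in yeast the related Pho80 acts in phosphate signalling) had 8.32, 19.2 and 6.71 FPKM in CK_1, 4.88, 7.3 and 2.93 in S_1, 7.92, 16.1 and 11.7 in CK_7 and 18.2, 17.5 and 13.2 in S_7. It was upregulated in S_7 against S_1 (1.57 ± 0.31 (SE), limma adjusted p = 0.0624) but not with Ballgown's linear model (1.59, adjusted p = 0.844), and its controls overlapped between the days. Cyclin-L1-1 (LOC104891032), of the splicing-linked type and the highest mean of the class, lay between 17.5 and 34.0 FPKM and was not called. The 6 genes of cyclins C, T and H, which act in transcription, were not called in any comparison. The rule also took 4 members that match by name only, namely a calcyclin-binding protein (LOC104883858, 92.0 to 156 FPKM), a cyclin-D-binding Myb-like factor, an entry called cyclin-B1-2 whose KEGG entry is a proteasome assembly factor, and LOC104900518, named after a kinase of Dictyostelium. None of the 4 was called. The organellar replication genes, a mitochondrial single-stranded DNA-binding protein (LOC104908216, 1.96 to 19.1 FPKM) and a plant organellar DNA polymerase, were not called either.

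**Figure D3:**
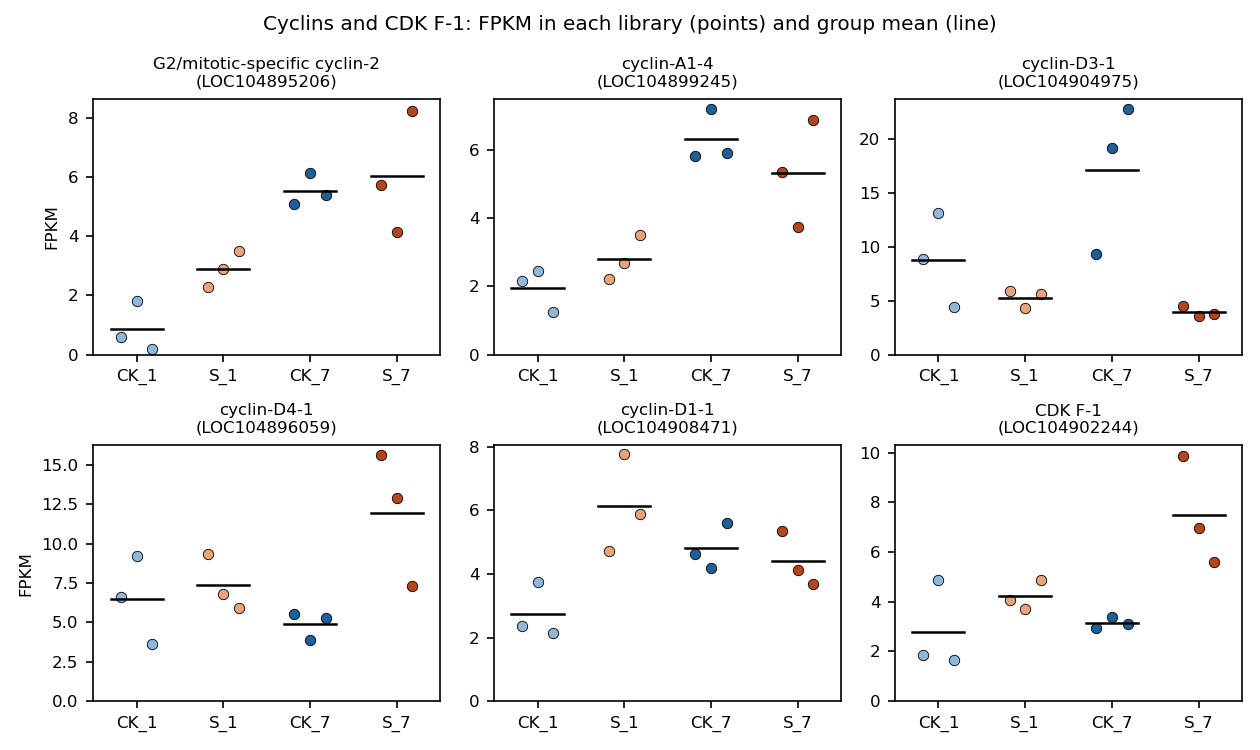
FPKM (vertical axis, linear, from 0) of 5 cyclins and CDK F-1 in the 4 groups; each point is 1 library and the line is the mean of the 3 libraries. The S_7 points of cyclin-D3-1 (LOC104904975) all lie below the CK_7 points, those of cyclin-D4-1 (LOC104896059) and CDK F-1 all lie above, and G2/mitotic-specific cyclin-2 and cyclin-A1-4 are higher on day 7 in CK.

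Among the histones, the gene of a class that carried most of the FPKM differed from library to library in some classes, such as H3.2 and H4. Of the 41 members that reached 20 FPKM in some library, 11 were listed at exactly 0 in another, against 542 of 6009 genes in the whole table. In the H3.2 and H4 classes, genes at 0 stood beside genes of the same description that were high in the same library. An exact 0 in such a table can be a failed estimate, so a value of 0 is given here only as listed. For the H3.2 genes, which encode the S-phase form of H3, LOC104891457 was listed at 0, 46.7 and 8.6 FPKM in CK_1, at 32.6, 41.4 and 29.2 in S_1, with 0 in every day 7 library. Its neighbour LOC104891458 was listed at 0, 0 and 8.46 in CK_1, 31.2, 0 and 30.2 in S_1, 59, 0 and 0 in CK_7 and 0, 70.6 and 93.7 in S_7. LOC104891457 was downregulated in S_7 against S_1, and this call is for that entry alone.

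The 7 H3.2 genes together summed to 7.48, 108 and 25.3 FPKM in CK_1, 76, 112 and 88.9 in S_1, 125, 46.4 and 58.9 in CK_7 and 194, 109.8 and 139 in S_7. Within CK_1, replicate 1 was low and replicate 2 high. The means of the sum stood 1.96 times higher in S_1 than in CK_1 and 1.93 times higher in S_7 than in CK_7, and the groups overlapped on both days. The first ratio was 5.63 without CK_1 replicate 2. No test was run on sums.

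The 7 H4 genes varied in the same way. LOC104895821 was listed at 123 FPKM in CK_7 replicate 1, at 101 in S_7 replicate 1 and at 0 in the other 10 libraries, and LOC104900150 was listed at 242 in S_7 replicate 2 and at 0 in the other 11. The class summed to 28.2, 52.8 and 15.6 FPKM in CK_1, 54.9, 43.4 and 47.1 in S_1, 165, 121 and 125 in CK_7 and 175, 282 and 84.7 in S_7. Every day 7 sum lay above every day 1 sum, with means 4.25 times higher in CK_7 than in CK_1 and 3.72 times higher in S_7 than in S_1. The former was 6.25 without CK_1 replicate 2. These ratios include LOC104895821 and LOC104900150, both listed at 0 in every day 1 library, so their size depends on values listed as 0. For LOC104908202 and LOC104908208, above 0 in all libraries, the ratios of mean FPKM were 2.44 and 3.32 in the controls and 2.45 and 2.04 under salt. The entry LOC104908202, which joins 2 H4 genes and was above 0 in all libraries, had 14.6, 18.9 and 6.41 FPKM in CK_1, 21, 24.4 and 18 in S_1, 23.9, 34.7 and 39 in CK_7 and 56.4, 38.5 and 60.3 in S_7. It was upregulated between the days in both treatments (1.31 ± 0.41 (SE) and 1.24 ± 0.21 (SE), limma adjusted p = 0.115 and 0.0517), the latter lost after scaling (0.97) and with Ballgown's linear model (0.82). It was also upregulated for salt on day 1 without CK_1 replicate 2 (1.03). LOC104908208, in the same cluster, had 1.98, 11.5 and 3.48 in CK_1 and 18.6, 16.5 and 21 in CK_7 and was upregulated there too (1.84 ± 0.53 (SE); 0.60 and not called with Ballgown's linear model). A further H4 gene, LOC104906716, was upregulated for salt on day 1, at 2.14, 0 and 0.334 FPKM in CK_1 and 5.37, 7.96 and 5.54 in S_1, with 0 listed in every day 7 library. It was also downregulated in S_7 against S_1, and in CK_7 against CK_1 without CK_1 replicate 2 (-1.03).

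**Figure D4:**
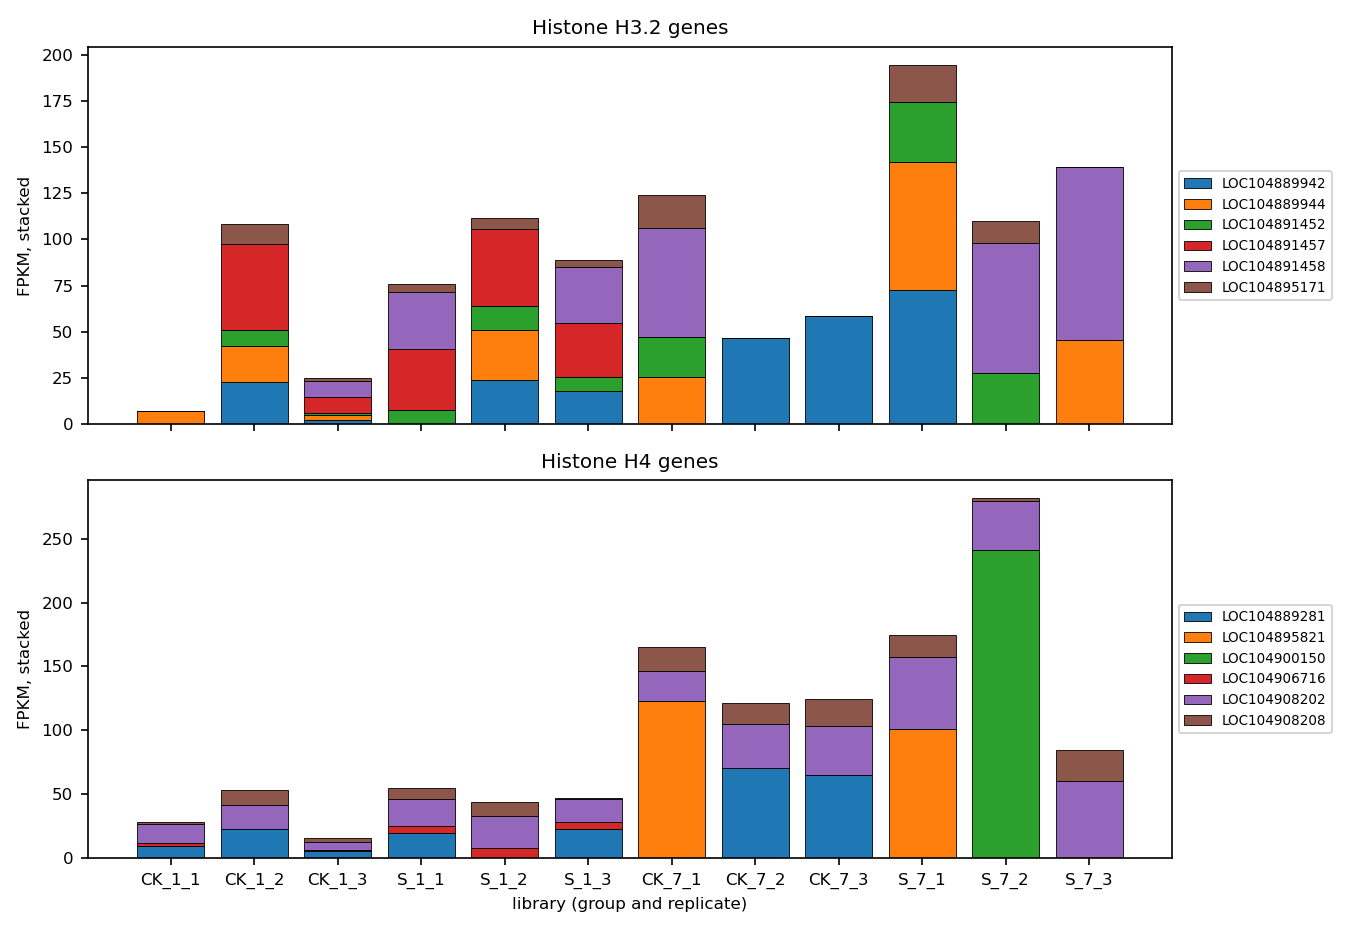
FPKM stacked by gene (vertical axis, linear, from 0) of the H3.2 genes (top) and H4 genes (bottom) that reached 1 FPKM, in each of the 12 libraries (horizontal axis); each colour is 1 gene. The colours change from library to library within a group, and every H4 stack of day 7, from 84.7 to 282 FPKM, is higher than every H4 stack of day 1, from 15.6 to 54.9 FPKM.

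Among the H2A genes, LOC104904618 (probable H2A variant 3, the H2A.Z type) gave the largest call for salt on day 1. It had 20.8, 38.1 and 18.7 FPKM in CK_1, 0.436, 0.347 and 0.362 in S_1, 0.305, 0.703 and 0.789 in CK_7 and 0.839, 81.3 and 1.03 in S_7. The S_1 libraries were all low, at a log2 fold change of -4.21 ± 0.30 (SE) (limma adjusted p = 0.0147), the CK_7 libraries were low as well, and S_7 replicate 2 was the highest of all 12. A neighbouring gene of the same description, LOC104904620, had 12.5, 0.374 and 8.14 FPKM in CK_1, 18.1, 0.371 and 13.2 in S_1, 0.227, 0.177 and 17.4 in CK_7 and 9.39, 0.262 and 35.5 in S_7, with low and high libraries in every group. The pair summed to 33.4, 38.5 and 26.9 FPKM in CK_1, 18.5, 0.718 and 13.6 in S_1, 0.532, 0.881 and 18.2 in CK_7 and 10.2, 81.6 and 36.5 in S_7, so that S_1 still lay below CK_1 on day 1, while within CK_7 and S_7 the sums ranged widely. Another gene of this description, LOC104894578, named after its values were seen, did not share the decrease on day 1. It had 5.42, 13.4 and 6.45 FPKM in CK_1 and 9.66, 12.7 and 13.7 in S_1. These groups overlapped, and it was not called for salt on day 1. In CK_7 it lay at 13.3 to 23.3 FPKM and was upregulated against CK_1, with overlap (1.12 ± 0.37 (SE), limma adjusted p = 0.129).

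H2A without a variant name (LOC104900158) was called for salt on both days. Its FPKM was 8.69, 24.9 and 6.06 in CK_1, 36.4, 29.6 and 24.8 in S_1, 5.55, 7.49 and 7.86 in CK_7 and 58.3, 43.5 and 9.88 in S_7. On day 1 the groups overlapped by CK_1 replicate 2 (1.35 ± 0.50 (SE)), and on day 7 all salt libraries lay above CK, although S_7 replicate 3 was close to the controls (1.95 ± 0.66 (SE), limma adjusted p = 0.278 and 0.206). The day 7 call was lost when any library but S_7 replicate 3 was left out, with log2 fold changes of 1.48 to 2.04, and with Ballgown's linear model (1.97). The entry named H2A-beta, sperm (LOC104885330; the name is that of an animal gene) was upregulated in CK_7, at 1.61 to 3.94 FPKM in CK_1 and 11.5 to 18.5 in CK_7 (2.24 ± 0.32 (SE)). It was listed at 0 in S_7 replicate 1 and at 13.1 and 24.2 FPKM in the other S_7 libraries. H2A.5 (LOC104907068), the H2A gene of highest mean, was between 43.5 and 125 FPKM in 10 libraries and at 1.06 and 1.01 in S_1 replicate 2 and CK_7 replicate 3.

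The H2B entry that joins 2 genes of H2B.1 (LOC104900161), the highest mean of its class, had 18.4, 74.2 and 18.1 FPKM in CK_1, 32.6, 41.2 and 33.6 in S_1, 35.5, 46.8 and 51 in CK_7 and 57.4, 75 and 64.3 in S_7. All S_7 libraries lay above all CK_7 and all S_1 libraries, at log2 fold changes of 0.56 and 0.85 that missed the criterion. It was upregulated in CK_7 against CK_1 without CK_1 replicate 2 (1.22). H2B.9 (LOC104901591) was listed at 0 in the 9 libraries outside S_7 and at 0.50, 0.38 and 0.628 FPKM in S_7. That is a low level, yet it was the member with an adjusted p under 0.05 for salt on day 7 (limma adjusted p = 0.0319) and for the difference between the days (limma adjusted p = 0.0056). Histone H1 (LOC104894607), the linker histone, had 37.1, 96.8 and 35.4 FPKM in CK_1, 87.5, 198 and 165 in S_1, 73.2, 184 and 183 in CK_7 and 85.2, 165 and 202 in S_7. It was called for salt on day 1 and between the days in the controls, with groups that overlapped in both. The other H1 entry (LOC104894148), named after its values were seen, did not share these increases and was not called in any comparison. It had 69.9, 114 and 75.3 FPKM in CK_1, 88.4, 77.4 and 79.3 in S_1, 87.2, 19.9 and 108 in CK_7 and 4.93, 94.6 and 4.58 in S_7. H3.3 (LOC104896028), the replication-independent form, was the most abundant member at 871, 964 and 216 FPKM in CK_1, 961, 846 and 872 in S_1, 199, 885 and 823 in CK_7 and 1113, 876 and 869 in S_7. CK_1 replicate 3 and CK_7 replicate 1 were low and the other 10 libraries high, and it was not called.

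Of the 46 loci under the histone entries, 43 were found in the RefSeq gene table of the EL10.2 assembly. Some of them formed 7 clusters of 2 to 4 loci there, with at most 5 genes between neighbours. Loci joined with a histone in an entry were counted too, such as the uncharacterized LOC109136562. A cluster of H2A (LOC104900158) with H2B.1 genes included LOC104900155, and another held the H4 loci LOC104908202, LOC104908205 and LOC104908208. In the first, H2A and the joined H2B.1 entry were higher in S_7 than in CK_7 as above, whereas LOC104900155 was listed at 0 in all 6 day 7 libraries. On day 1, LOC104900155 was listed at 0, 67.7 and 24.2 FPKM in CK_1 and at 0, 65.1 and 48.5 in S_1. The build of the deposited table is not given in the sources used here, so the clusters describe the order of genes in EL10.2.

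Joined entries cover several proteins under 1 value, so their calls cannot be assigned to the member. Of the 3 downregulated members of day 1, 2 were of this kind. LOC104890516, an uncharacterized gene with CDK G-2, had 19.2, 56.4 and 135 FPKM in CK_1, 15, 8.97 and 10.3 in S_1, 88.2, 59.9 and 85.2 in CK_7 and 7.85, 91.2 and 5.08 in S_7. The S_1 libraries were all low (-2.15 ± 0.69 (SE), lost without CK_1 replicate 2 or S_1 replicate 2 or 3 and with Ballgown's linear model), and S_7 held 2 low libraries and 1 high one. LOC104898306, an SRG1-like oxidase with an RPA1-like gene, had 10.5, 16.1 and 6.81 in CK_1 and 4.32, 5.84 and 3.52 in S_1 (-1.08 ± 0.34 (SE), lost without CK_1 replicate 1 or 2 or S_1 replicate 1 or 3). LOC104891643, the joined entry of highest mean, lay between 118 and 175 FPKM and was not called.

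The sum of the endodermis markers was higher with salt on day 7. The 3 Casparian strip genes summed to 14.9 to 44.4 FPKM in CK_7 and 72.7 to 104 in S_7. On day 1 they summed to 13.1 to 61.1 in CK_1 and 15.5 to 80.9 in S_1. LOC104889278 held most of the S_7 sum, at 2.82, 22.6 and 21.1 FPKM in CK_7 and 80.4, 44.9 and 80.1 in S_7. LOC104897879 lay at 2.85 to 7.18 FPKM in CK_7 and 7.27 to 18.6 in S_7. LOC104898307 overlapped, at 1.57 to 16.1 FPKM in CK_7 and 4.94 to 20.5 in S_7. The part of these 3 genes in the salt differences of cyclin-D3-1, cyclin-D4-1, CDK F-1, H2A and H2B.9 on day 7 was not tested.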

How the data were processed

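Roots of 12 sugar beet samples (4 groups, 3 libraries each) were measured by poly(A) RNA-seq. The authors aligned the reads with HISAT (HISAT2 2.0 in the submitters' processing notes), assembled and quantified transcripts with StringTie (1.3.0) and deposited FPKM values per gene and library, already divided by transcript length and mapped reads. The genome build is not given in the sources used here. The paper states read numbers by group, which were not used here. The table holds none and its lowest values did not give whole reads, so the reads behind a value are unknown. Precision rests on the spread between the 3 libraries of a group, which limma moderates by the spread over all genes. The labels gave the group and replicate number of each library, and p-values set the difference between groups against the spread between these libraries.

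Each comparison was fitted with limma 3.58.1 (R 4.3.3) to log2(FPKM + 1) of its 6 libraries, with a trend of the variance on the mean. Genes at 0 in all 6 were left out, and p-values were adjusted over all others. The criteria (P under 0.05, log2 fold change above 1 or below -1) follow the methods of the paper. The salt effect was compared between the days as an interaction over 12 libraries, called at an adjusted p under 0.05. The fits were tested on simulated data. Members and lists were chosen with earlier results of these data known, and the list of older CDK names was added after the descriptions had been read. Named were the called members without overlap (at most 6 increases and 6 decreases per comparison), all MCM and PCNA genes, A-type and B-type cyclins and CDK inhibitors of mean FPKM of at least 5, the gene of highest mean in each class, members with a difference between the days, and genes of the related lists called for salt without overlap. Others are marked where they appear.

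Alternatives were an adjusted p with the fold criterion, a pseudocount of 0.1, median ratio scaling, a floor of 1 on the mean FPKM, Ballgown's linear model (rewritten in R), a block for the replicate number, and leaving out single libraries. Same-numbered libraries were not treated as pairs. A search of promoter motifs was not run, since no promoter sequence was given. The authors' annotation columns were used for names and KEGG entries only.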

Additional observations from a re-analysis of the deposited data

Results flagged for a closer look

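The salt effect on histone H2B.9 (LOC104901591) differed between the days by 0.58 on the log2 scale, by a test of the difference itself (limma interaction, adjusted p = 0.0056). The gene was listed at 0 in the 9 libraries of CK_1, S_1 and CK_7 and at 0.50, 0.38 and 0.628 FPKM in the 3 libraries of S_7, all below 1 FPKM, so the size of the log2 value rests on the pseudocount of 1. It dropped out when genes of a mean FPKM under 1 were removed.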

How the results depend on the processing

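Counts of called members moved as follows. With an adjusted p and the fold criterion, salt on day 1 gave 0 upregulated and 1 downregulated, salt on day 7 gave 0 and 0, and 15 and 5 were upregulated in CK_7 against CK_1 and S_7 against S_1. A pseudocount of 0.1 gave 7 and 5 upregulated for salt on days 1 and 7, 24 upregulated in S_7 against S_1, and 2 downregulated in CK_7 against CK_1. Ballgown's linear model gave 0 upregulated and 1 downregulated for salt on day 7, 11 upregulated and 4 downregulated in CK_7 against CK_1, and 2 differences between the days. Scaling by median ratios gave 3 upregulated in S_7 against S_1 and 2 differences between the days, and a mean FPKM of at least 1 left 0 such differences. With the replicate block, 1 member was downregulated for salt on day 7, and no other count left the range of 1.5 times. The replicate numbers share no plant or batch in the labels, and the correlations of same-numbered libraries ranged from -0.09 to 0.10, so this block is not read as a pairing. Leaving out 1 library at a time gave 1 to 14 upregulated and 1 to 4 downregulated for salt on day 1, 0 to 3 and 1 to 4 on day 7, 20 to 34 and 1 to 3 in CK_7 against CK_1, 6 to 17 and 2 to 3 in S_7 against S_1, and 1 to 2 differences between the days.

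Over 54 log2 fold changes of 26 named genes, recomputed under these alternatives, 528 values kept their direction and side of the criteria, 55 lost the call, 10 gained it and 6 changed sign. The sign changes were all for salt on day 7, in genes near 0. MCM2 (LOC104901364) became -0.11 with Ballgown's model, -0.0016 without CK_7 replicate 1 and -0.0076 without S_7 replicate 3, and reached 0.25 without S_7 replicate 2. The PCNA gene LOC104903846 became 0.06 without S_7 replicate 1 and 0.14 without S_7 replicate 2, against -0.54 without S_7 replicate 3, and MCM7 (LOC104894762) became -0.0497 with Ballgown's model. The cause was not tested. The table holds no read counts, so no limit from depth is given.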

Other observations

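A group of 3 members was listed at 0 in all 6 day 7 libraries and at 5 FPKM or more in at least 3 day 1 libraries, namely the H2B.1 gene LOC104900155, the H4 gene LOC104906716 and the H3.2 gene LOC104891457 (1.94% of 155 members). In the whole table this held for 19 of 28320 genes (0.0671%), and the reverse for 5 genes and 0 members.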
